A study of Mus musculus with 2 samples.

Results

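The guidance genes encode the semaphorins, ephrins, slits and netrins, which steer growing axons, vessel sprouts and migrating cells, together with their plexin, neuropilin, Eph, Robo, Unc5, DCC and neogenin receptors. They were taken by symbol from the table of PAT, the fat depot around the heart, as all genes whose names belong to these families, with no use of measured values. The rule found 62 of the 23609 listed genes, and 57 of them had more than 0.5 CPM (reads scaled to a common library size) in at least 1 library. In the mouse annotation 72 protein-coding genes bear such names. Dcc, Epha5, Epha6, Epha7, Epha10, Ntn3, Ntn5, Robo2, Sema5b and Unc5d are not listed in the table, which holds only genes with a value above 0 in WT PAT, and were not analysed here.

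PAT was collected 24 h after permanent ligation of the LAD, the artery that feeds the front of the left ventricle, in P2Y4 KO mice, which lack a receptor for extracellular ATP and UTP, and in WT mice. The paper names C57BL/6J for the P2Y4 KO mice and no strain for the WT mice. Both genotypes underwent the ligation. The study used male and female mice of 11 to 13 weeks, and the sexes that went into each library are not given. RNA from 3 mice was pooled per genotype and sequenced as 1 library each, so that no difference between P2Y4 KO and WT PAT has a replicate check and no p-value or SD is given. Inferred from the deposited values on an assumed scale of 20000000 per library, the depths were 14885824 reads in P2Y4 KO and 15508820 reads in WT PAT. The scaling of these values is not described. P2ry4 itself is not listed, so that the genotype labels could not be checked against the deleted gene. The fat markers Adipoq and Plin1 were present in both libraries, at 333 and 245 CPM in P2Y4 KO and at 124 and 64.4 CPM in WT PAT.

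Semaphorins of class 3 are secreted and signal through a neuropilin and a plexin, except Sema3e, which binds plexin D1 directly, while classes 4 to 6 span the membrane and class 7 carries a lipid anchor. Ephrins act between touching cells, the A ephrins through a lipid anchor and the B ephrins through a transmembrane segment, and the Eph receptors that bind them are tyrosine kinases. Slits bind Robo receptors, and netrins bind DCC, neogenin and the Unc5 receptors. Several of these proteins also shape blood vessels, among them Nrp1, which is a co-receptor of VEGF, Plxnd1 and Robo4 of the endothelium, and Efnb2 and Ephb4, which mark arteries and veins.

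Few guidance genes differed between the libraries by a factor of 2 or more. Higher stands for a P2Y4 KO value at least 2 times that of WT PAT, and lower for a value at most 0.5 times that of WT. By this threshold Sema3d, Efna5, Sema3e and Epha2 were lower, and Epha3 and Robo1 were higher. The share of lower members was 7.02%, or 4 of 57, against 4.4% of all 18474 genes past the filter, and the share of higher members was 3.51%, or 2 of 57, against 8.75% of all genes. Together 6 of the 57 members passed either threshold, against 13.1% of all genes. With a threshold of 1.5 times, 11 members lay above and 15 below (against 16.5% and 10.2% of all genes). The median log2 ratio was -0.17 over the 57 members and 0.00 over all genes past the filter.

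The intervals given with the ratios are exact 95% Clopper-Pearson intervals of the reads, and they hold only the counting error, without the spread between mice. The whole interval lay below 1 for 23 members (40.4%, against 23.5% of all genes) and above 1 for 15 members (26.3%, against 25.2%). A whole interval past the threshold was found for 1 lower member, against 1.04% of all genes, and for no higher member, against 3.05% of all genes. The members had a median of 233 reads in P2Y4 KO and 205 reads in WT PAT, against 269 reads in each library over all genes. Scaling to the ribosomal protein genes, whose median ratio was then 1, shifts each log2 value by 0.19. On this ribosomal scale 1 member was lower and 6 were higher, and the median log2 ratio of the members was 0.07, with the filter applied again on that scale.

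The promoters of the 4 lower members are shown because these genes share a direction. They were taken from RefSeq (GRCm38.p6), from 250 bases before to 50 after the start of each gene, and 50 of the 57 members past the filter had an entry. Capitals mark the GC box GGGCGG on either strand, a motif bound by Sp1-type factors. It occurs in 35.7% of all 32851 promoters of this length and in 71.0% of the 62 promoters of the members. The windows are chr5:12382916-12383215 (plus strand), chr5:14025026-14025325 (plus strand), chr17:62881268-62881567 (minus strand) and chr4:141300971-141301270 (plus strand), and each sequence runs 5′ to 3′ along its gene.
Sema3d: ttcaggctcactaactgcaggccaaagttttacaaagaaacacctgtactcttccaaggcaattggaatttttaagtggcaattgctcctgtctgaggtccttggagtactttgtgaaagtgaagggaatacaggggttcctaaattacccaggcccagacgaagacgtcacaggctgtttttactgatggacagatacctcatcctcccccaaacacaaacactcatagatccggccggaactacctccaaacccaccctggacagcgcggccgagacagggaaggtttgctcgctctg
Sema3e: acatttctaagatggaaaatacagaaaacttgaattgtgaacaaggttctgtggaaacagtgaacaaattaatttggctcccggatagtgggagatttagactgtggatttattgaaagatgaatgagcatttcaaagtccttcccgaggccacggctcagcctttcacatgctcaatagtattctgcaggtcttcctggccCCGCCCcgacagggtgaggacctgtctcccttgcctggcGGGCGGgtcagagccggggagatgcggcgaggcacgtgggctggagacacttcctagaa
Efna5: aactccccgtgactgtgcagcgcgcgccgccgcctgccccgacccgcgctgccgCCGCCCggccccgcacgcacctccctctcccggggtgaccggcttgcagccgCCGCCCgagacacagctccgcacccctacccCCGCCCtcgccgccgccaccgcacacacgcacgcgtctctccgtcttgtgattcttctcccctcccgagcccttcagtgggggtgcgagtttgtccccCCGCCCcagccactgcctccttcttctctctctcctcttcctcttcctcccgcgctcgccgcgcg
Epha2: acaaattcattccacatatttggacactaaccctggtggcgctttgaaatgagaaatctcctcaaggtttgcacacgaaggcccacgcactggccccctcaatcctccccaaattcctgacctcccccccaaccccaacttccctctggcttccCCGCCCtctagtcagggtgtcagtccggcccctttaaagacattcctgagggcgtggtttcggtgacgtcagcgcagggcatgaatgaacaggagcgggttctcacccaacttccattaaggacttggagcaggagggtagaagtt
The box was found 4 times in the Efna5 promoter, 2 times in that of Sema3e, 1 time in that of Epha2 and 0 times in that of Sema3d. The GC content was 73.3% for Efna5, 54.7% for Epha2, 50.7% for Sema3e and 49.7% for Sema3d, against a median of 52.7% over all promoters and 64% over those of the members. The 4 lower genes thus differed in both.

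In GENCODE M21 (GRCm38) Sema3d spans chr5:12383385-12588948, Sema3e chr5:14025276-14256689, Efna5 chr17:62604184-62881317 and Epha2 chr4:141301240-141329384, and all are protein-coding. For Sema3d and Epha2, the RefSeq start lies upstream of the GENCODE start. No exon of these 4 genes overlaps an exon of another gene, whereas 11 of the 62 members have such an overlap on the opposite strand and 4 on the same strand.

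**Figure D1:**
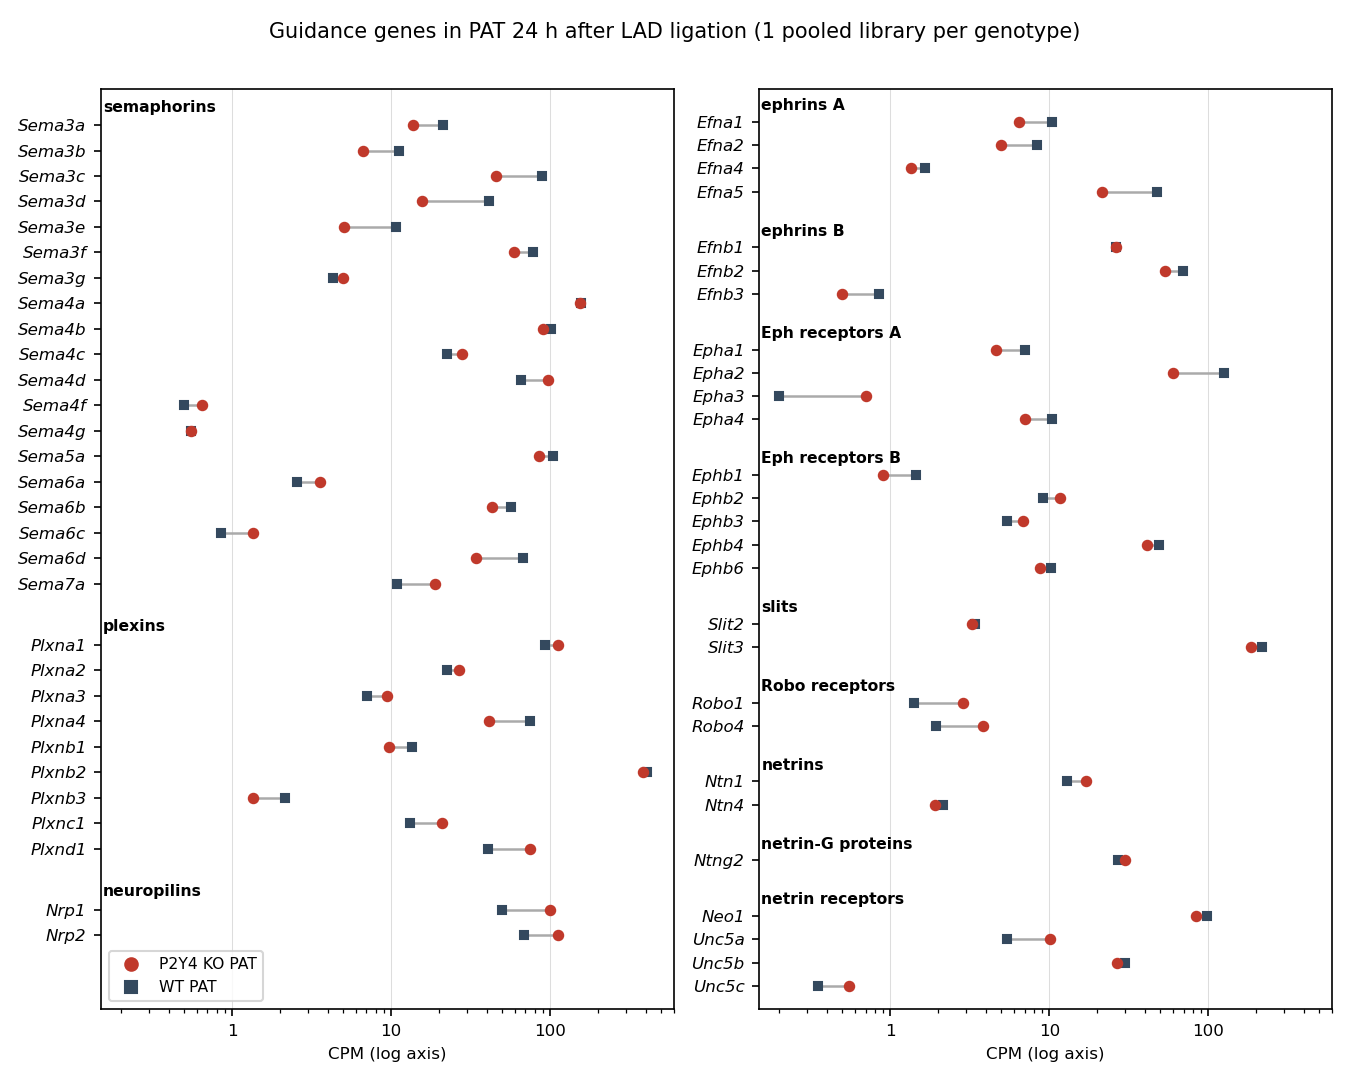
CPM on a log axis of each guidance gene past the filter in P2Y4 KO PAT (circles) and WT PAT (squares), 1 pooled library per genotype, by family. Plxnb2 lies farthest to the right, at 386 CPM in P2Y4 KO and 405 CPM in WT PAT, and the circles of Sema3a to Sema3f all lie left of their squares.

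Of 31 ligands past the filter, none was higher and 3 were lower (9.68%), against 8.75% higher and 4.4% lower among all genes. Their median log2 ratio was -0.22, and it came to -0.01 on the ribosomal scale. Of 26 receptors, 2 were higher and 1 was lower (7.69% and 3.85%). Their log2 ratios had a median of 0.25, which was 0.44 on the ribosomal scale and 0.08 with each of the 3 stricter filters, CPM above 0.5 in both libraries, a mean CPM above 0.5 or CPM above 1. Ratios below 1 were found for 20 of the 31 ligands and 12 of the 26 receptors, against 49.4% of all genes, and ratios above 1 for 10 ligands and 14 receptors, against 49.5% of all genes. Summed over all listed members, the ligands reached 1063 CPM in P2Y4 KO and 1274 CPM in WT PAT, and the receptors 1163 CPM in P2Y4 KO and 1147 CPM in WT PAT.

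By RPKM, which divides CPM by exon length and so lets genes be ranked within a library, the 5 most abundant members were the same in both genotypes. Plxnb2, a plexin for class 4 semaphorins, stood at 49.97 RPKM in P2Y4 KO and 52.4 RPKM in WT PAT. Slit3 followed with 30.7 RPKM in P2Y4 KO and 35.9 RPKM in WT PAT, and Sema4a with 28.6 and 28.9 RPKM in P2Y4 KO and WT PAT. Epha2 took the fourth rank in WT PAT (26.8 RPKM) and the fifth in P2Y4 KO PAT (12.9 RPKM). Plxnd1 ranked 10 of 57 in P2Y4 KO and 20 in WT PAT, and Nrp1 ranked 11 in P2Y4 KO and 23 in WT PAT. The median member had 2.43 RPKM in P2Y4 KO and 2.72 RPKM in WT PAT, against 5.02 RPKM in P2Y4 KO and 4.998 RPKM in WT PAT for all genes past the filter.

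Of the 7 class 3 semaphorins, Sema3d and Sema3e were lower (against 4.4% of all genes), and 6 had the whole interval below 1 (against 23.5% of all genes). The class summed to 151 CPM in P2Y4 KO and 256.5 CPM in WT PAT. These 6 ratios were below 1 under every scaling tried. The median log2 ratio of class 3 was -0.75.

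Sema3d, which guides axons and endothelial cells in development, had 233 reads (15.7 CPM) in P2Y4 KO and 641 reads (41.4 CPM) in WT PAT. Its ratio of 0.380 (0.325 to 0.441) is the lowest of the 57 members past the filter, and it is the only one of them whose whole interval lies below 0.5. The Plxnd1 ligand Sema3e had 75 reads (5.05 CPM) in P2Y4 KO and 166 reads (10.8 CPM) in WT PAT, a ratio of 0.470 (0.353 to 0.622), and it lies within the threshold (0.536) on the ribosomal scale. Sema3c, the class 3 gene with the highest CPM in WT PAT, stood just inside the threshold. It had 679 reads (45.7 CPM) in P2Y4 KO and 1381 reads (89.1 CPM) in WT PAT, a ratio of 0.513 (0.467 to 0.562). Sema3a, a repellent of axons that acts through Nrp1, had 206 reads in P2Y4 KO and 328 reads in WT PAT, a ratio of 0.655 (0.547 to 0.781). For Sema3b the counts were 99 reads in P2Y4 KO and 174 reads in WT PAT (ratio 0.596, 0.458 to 0.763). Sema3f, a ligand of Nrp2, had 885 reads in P2Y4 KO and 1219 reads in WT PAT (ratio 0.757, 0.693 to 0.825). The exception in this class was Sema3g, with 74 reads in P2Y4 KO and 66 reads in WT PAT and an interval from 0.827 to 1.65, so that no difference was detectable at this depth.

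None of the 12 semaphorins of classes 4 to 7 passed the threshold (against 13.1% of all genes), and Sema6d lay closest to it. Sema6d had 511 reads (34.4 CPM) in P2Y4 KO and 1050 reads (67.8 CPM) in WT PAT, a ratio of 0.507 (0.455 to 0.564) that reaches 0.495, past the threshold, with median-of-ratios size factors. Sema7a, which is expressed on leukocytes and binds Plxnc1 and integrin beta 1, had 280 reads (18.9 CPM) in P2Y4 KO and 169 reads (10.9 CPM) in WT PAT. Its ratio was 1.73 (1.42 to 2.10). Sema4d, known as CD100 on T cells, had 1456 reads in P2Y4 KO and 1015 reads in WT PAT, a ratio of 1.495 (1.38 to 1.62). The semaphorin with the highest CPM, Sema4a, had 2303 reads (155 CPM) in P2Y4 KO and 2420 reads (156 CPM) in WT PAT, and the interval of its ratio of 0.992 (0.936 to 1.05) includes 1. The other transmembrane semaphorins had ratios from 0.752 for Sema6b to 1.59 for Sema6c, with Sema5a at 0.818, Sema4b at 0.887 and Sema4c at 1.25. Sema6c, Sema6a (1.41), Sema4f (1.3) and Sema4g (1) had 53 reads or fewer in each library and intervals that include 1.

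Both neuropilins and 5 of 9 plexins had ratios above 1, against 49.5% of all genes. No neuropilin or plexin passed the threshold in either direction, against 13.1% of all genes. Nrp1 had 1487 reads (99.9 CPM) in P2Y4 KO and 779 reads (50.3 CPM) in WT PAT, and its ratio of 1.99 (1.82 to 2.17) reached 2.00 when the 100 most abundant genes were left out of the library total and 2.27 on the ribosomal scale. Nrp2, which binds Sema3f and VEGF-C, had 1671 reads (112 CPM) in P2Y4 KO and 1061 reads (68.5 CPM) in WT PAT, a ratio of 1.64 (1.52 to 1.77). The plexin with the highest ratio was Plxnd1, with 1111 reads (74.7 CPM) in P2Y4 KO and 633 reads (40.9 CPM) in WT PAT (1.83, 1.66 to 2.02). On the ribosomal scale Plxnd1 passed the threshold at 2.09. Plxnc1, the receptor of Sema7a on leukocytes, had 313 reads (21.1 CPM) in P2Y4 KO and 205 reads (13.3 CPM) in WT PAT (1.59, 1.33 to 1.91). The A plexins, which pair with neuropilins, went apart. Plxna1, Plxna2 and Plxna3 had ratios of 1.19, 1.18 and 1.33 with the whole interval above 1, whereas Plxna4 had 615 reads (41.4 CPM) in P2Y4 KO and 1166 reads (75.2 CPM) in WT PAT, a ratio of 0.550 (0.498 to 0.606). The B plexins bind class 4 and 5 semaphorins, and their ratios were 0.712 for Plxnb1 (0.570 to 0.882), 0.628 for Plxnb3 (0.343 to 1.13) and 0.953 for Plxnb2 (0.919 to 0.988), with 5742 reads (386 CPM) of Plxnb2 in P2Y4 KO and 6278 reads (405 CPM) in WT PAT. Plxnb2 turned to 1.09 on the ribosomal scale.

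**Figure D2:**
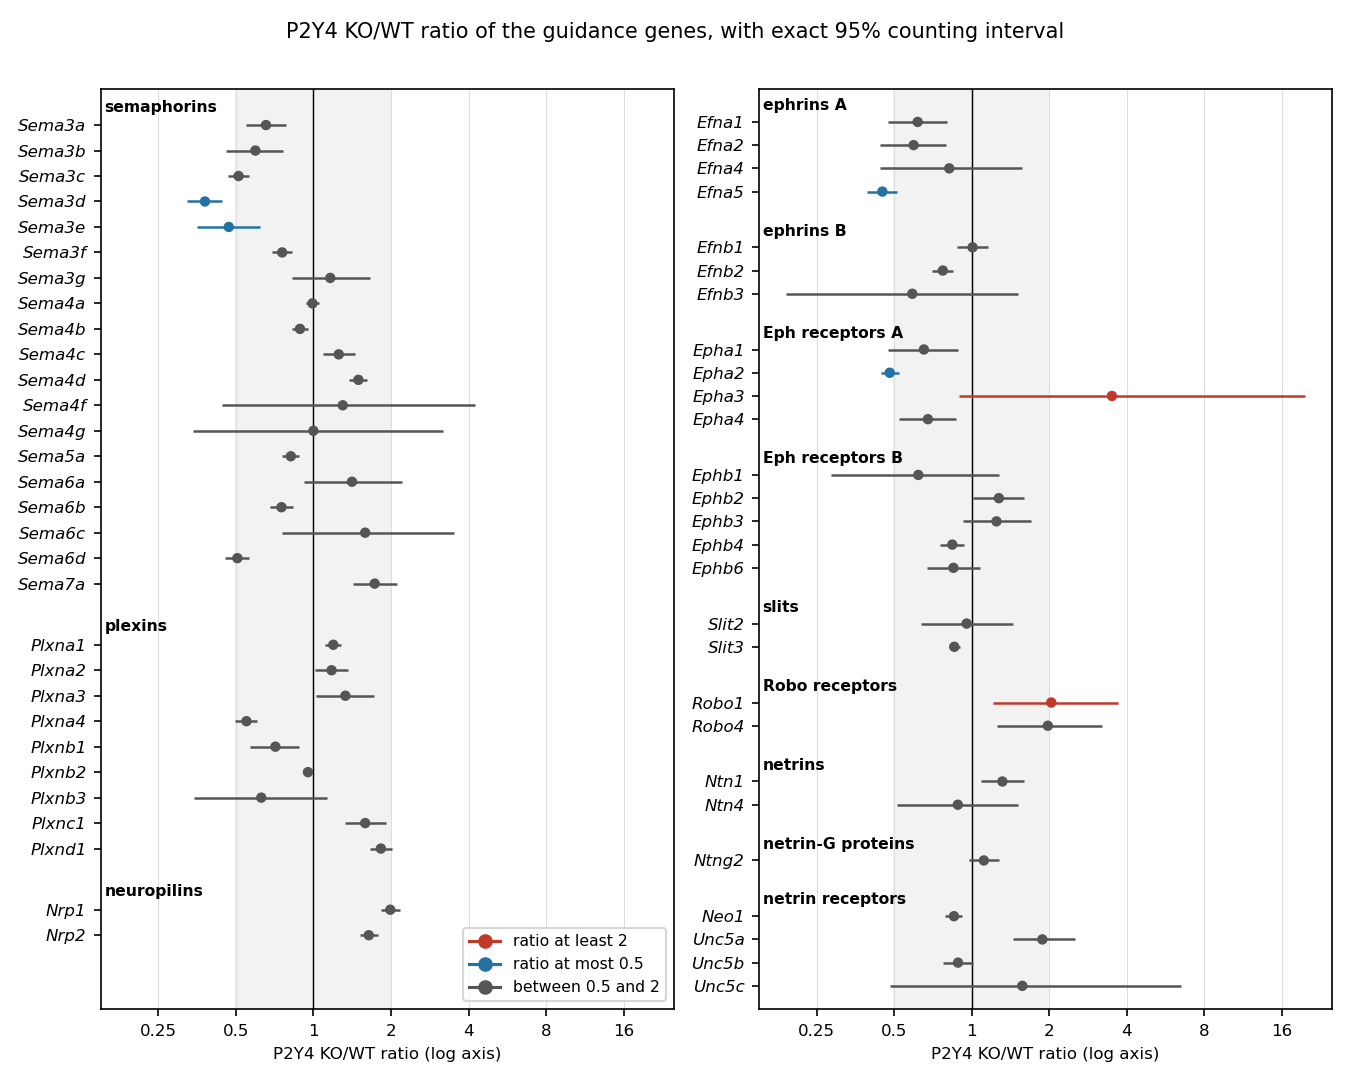
P2Y4 KO/WT ratio of each guidance gene past the filter on a log axis, with its exact 95% interval (lines), which covers counting error only, and the span from 0.5 to 2 in grey. Sema3d, Sema3e, Efna5 and Epha2 lie left of the span, Robo1 and Epha3 right of it, and Nrp1 lies at its right edge with 1.99.

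Of the 8 A-type ephrins and Eph receptors past the filter, Efna5 and Epha2 were lower (25%, against 4.4% of all genes). Epha3 was higher (12.5%, against 8.75% of all genes), and 7 had a ratio below 1, against 49.4% of all genes. The median log2 ratio was -0.66, and the group with its members under the filter summed to 108 CPM in P2Y4 KO and 211 CPM in WT PAT. The 8 B-type genes had a median log2 ratio of -0.24 and none passed the threshold, with 149.6 CPM in P2Y4 KO and 171.5 CPM in WT PAT. The difference between the types was not tested.

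Epha2, a receptor of ephrin-A1 that is prominent in epithelia, accounted for most of the A-type CPM, with 898 reads (60.4 CPM) in P2Y4 KO and 1946 reads (125.5 CPM) in WT PAT. Its ratio was 0.481 (0.444 to 0.521), or 0.549 on the ribosomal scale. The lipid-anchored ligand Efna5 had 317 reads (21.3 CPM) in P2Y4 KO and 733 reads (47.3 CPM) in WT PAT, a ratio of 0.450 (0.394 to 0.515), or 0.514 on that scale. Other A ephrins followed with smaller differences. Efna1, a ligand of Epha2, had 96 reads in P2Y4 KO and 162 reads in WT PAT (0.617, 0.475 to 0.7996), and Efna2 had 74 reads in P2Y4 KO and 130 reads in WT PAT (0.595, 0.440 to 0.795). Efna4, with 20 reads in P2Y4 KO and 25 reads in WT PAT, has an interval from 0.439 to 1.56. Among the receptors, Epha4, which binds ephrins of both types, had 104 reads in P2Y4 KO and 160 reads in WT PAT (0.676, 0.524 to 0.872), and Epha1 68 reads in P2Y4 KO and 109 reads in WT PAT (0.652, 0.473 to 0.888). Epha3 passed the ratio of 2 with only 10 reads in P2Y4 KO and 3 reads in WT PAT, and the interval of its ratio of 3.5 (0.894 to 19.6) includes 1. These reads amount to 0.7 CPM in P2Y4 KO and 0.2 CPM in WT PAT.

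In the B type, the arterial ligand Efnb2 had 797 reads (53.6 CPM) in P2Y4 KO and 1074 reads (69.3 CPM) in WT PAT, a ratio of 0.773 (0.705 to 0.848). Its venous receptor Ephb4 had 612 reads (41.2 CPM) in P2Y4 KO and 759 reads (49.0 CPM) in WT PAT, a ratio of 0.841 (0.754 to 0.936). Both ratios were below 1 on the ribosomal scale too (0.882 and 0.959). Efnb1 had 26.35 CPM in P2Y4 KO and 26.15 CPM in WT PAT (1.01, 0.875 to 1.16). Ephb2 was at 1.27 (1.01 to 1.60), Ephb3 at 1.25 (0.929 to 1.69) and Ephb6, which lacks kinase activity, at 0.8495 (0.670 to 1.08). Ephb1 and Efnb3, with ratios of 0.621 and 0.588, had 22 reads or fewer per library and intervals that include 1.

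No slit or netrin past the filter passed the threshold, and of their receptors Robo1 did (against 13.1% of all genes). Slit3 had 2775 reads (186 CPM) in P2Y4 KO and 3377 reads (218 CPM) in WT PAT, a ratio of 0.856 (0.814 to 0.900), or 0.977 on the ribosomal scale. Slit2 had 48 reads in P2Y4 KO and 52 reads in WT PAT (0.956, 0.636 to 1.45). Robo1, a receptor of both, had 42 reads (2.85 CPM) in P2Y4 KO and 21 reads (1.4 CPM) in WT PAT. Its ratio of 2.04 (1.21 to 3.70) falls to 1.99 with median-of-ratios size factors and to 1.76 when 0.5 CPM is added to both libraries. The endothelial Robo4 had 57 reads (3.85 CPM) in P2Y4 KO and 30 reads (1.95 CPM) in WT PAT, a ratio of 1.97 (1.25 to 3.19), or 2.25 on the ribosomal scale.

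Among the netrins, Ntn1 had 254 reads (17.1 CPM) in P2Y4 KO and 201 reads (13 CPM) in WT PAT, a ratio of 1.32 (1.09 to 1.59). Ntn4 of basement membranes had 28 reads in P2Y4 KO and 33 reads in WT PAT (0.884, 0.515 to 1.51), and the membrane-anchored Ntng2 448 reads (30.1 CPM) in P2Y4 KO and 418 reads (27 CPM) in WT PAT (1.11, 0.975 to 1.28). Neogenin, encoded by Neo1, also binds the RGM proteins and was the netrin receptor with the highest CPM. It had 1244 reads (83.6 CPM) in P2Y4 KO and 1519 reads (97.95 CPM) in WT PAT, a ratio of 0.853 (0.791 to 0.920). Unc5b, found on endothelium, had 395 reads in P2Y4 KO and 465 reads in WT PAT (0.885, 0.772 to 1.01). Unc5a differed more, with 151 reads (10.2 CPM) in P2Y4 KO and 83 reads (5.4 CPM) in WT PAT, a ratio of 1.88 (1.44 to 2.51), or 2.15 on the ribosomal scale. The exons of Unc5a overlap those of Hk3, a hexokinase gene, on the opposite strand, and the strand setting of the counting is not given. Unc5c had 8 reads in P2Y4 KO and 5 reads in WT PAT (1.57, 0.481 to 6.48). Under the filter lay Efna3, Epha8, Slit1, Robo3 and Ntng1, with 7 reads or fewer per library, and Robo3 and Ntng1 had 0 reads in P2Y4 KO PAT against 2 and 4 reads in WT PAT.

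A chosen set of 30 pairs of proteins known to bind each other was used, which does not hold every known pair. Plxnb2 and Sema3d, for example, are in none of them, and the counts depend on this choice. Of the 30 pairs, 28 had both genes listed. Of these 28, 13 joined a first gene with a ratio below 1 to a receptor with a ratio above 1. In 12 of these pairs the first gene is a ligand, and in the other, Unc5b with Robo4, both are receptors. The pairs share genes and are no independent observations. Over all members past the filter, 64.52% of the ligands were below 1 and 53.85% of the receptors above 1. Whether 13 pairs exceed what these shares alone would give was not tested. Among the first genes of the 13 pairs, Sema4a (0.936 to 1.05), Slit2 (0.636 to 1.45) and Unc5b (0.772 to 1.01) had intervals that include 1. Sema3e and Plxnd1 had ratios of 0.470 and 1.83, Sema3a and Nrp1 0.655 and 1.99, and Sema3c and Nrp2 0.513 and 1.64. Both genes were below 1 in 7 pairs, including Efna1 with Epha2 and Efna5 with Epha4, and both above 1 in 4 pairs, including Sema7a with Plxnc1. The opposite arrangement was found in 4 pairs, among them Sema4d with Plxnb1. On the ribosomal scale 9 pairs in place of 13 had the first gene below and the receptor above 1.

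**Figure D3:**
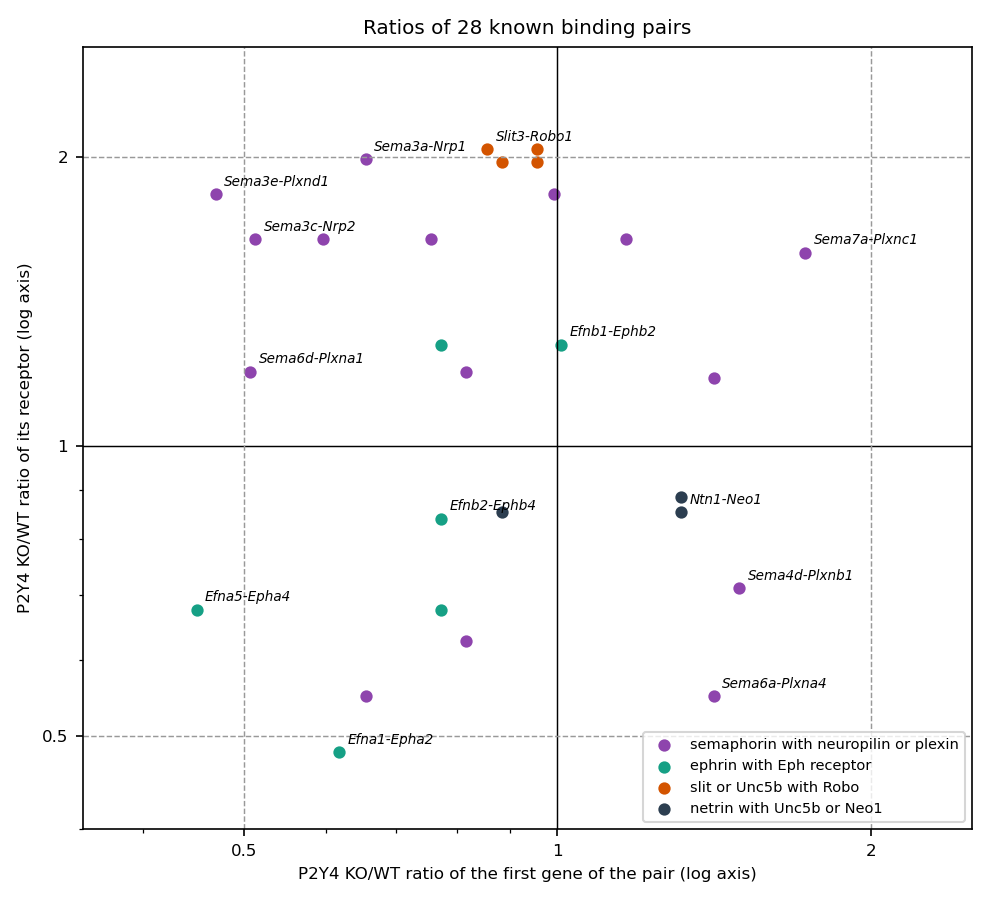
P2Y4 KO/WT ratio of the first gene (x axis) and of its receptor (y axis) for 28 known binding pairs, both on log axes, with lines at 0.5, 1 and 2. The upper left part holds 13 pairs, among them Sema3a-Nrp1, Sema3c-Nrp2 and Sema3e-Plxnd1, and the ephrin pairs Efna1-Epha2 and Efna5-Epha4 lie in the lower left.

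Partners of these ligands and receptors were described from lists chosen for their known roles. Of 28 co-receptors and binding partners past the filter, Chl1 was higher and Kdr was lower (3.57% each, against 8.75% and 4.4% of all genes), and the median of the log2 ratios was -0.14. Chl1, an adhesion molecule that joins the neuropilin complex, had 1407 reads (94.6 CPM) in P2Y4 KO and 629 reads (40.6 CPM) in WT PAT, a ratio of 2.33. Kdr, the VEGF receptor that works with Nrp1, had 261 reads (17.6 CPM) in P2Y4 KO and 554 reads (35.8 CPM) in WT PAT, a ratio of 0.491. Nrp1 and Kdr lay on opposite sides of 1, and the cell types behind these ratios were not tested. Of members chosen after their values were seen, the heparan sulfate proteoglycan Gpc1, which binds slits, stood at 1.99, the neogenin ligands Rgma and Rgmb at 0.817 and 0.789, and the Unc5 ligand Flrt2 at 1.07.

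Of 45 intracellular effectors past the filter, 2 were higher and 1 was lower (4.44% and 2.22%, against 8.75% and 4.4% of all genes). The log2 ratios had a median of -0.09. The lower gene was Ablim3, an actin-binding protein, with 171 reads in P2Y4 KO and 467 reads in WT PAT (0.381). Crmp1, a mediator of Sema3a signals in neurons, was higher, with 14 reads in P2Y4 KO and 4 reads in WT PAT (3.17). Likewise chosen after the values were seen, Arhgef12, an exchange factor that binds B plexins, was at 0.517 and Rnd1, a GTPase that binds plexins, at 0.568, both inside the threshold.

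Markers of several cell types differed between the libraries beside the guidance genes. In bulk tissue, fewer cells of a type and less RNA per cell cannot be told apart. Among all genes past the filter, 8.75% were higher and 4.4% were lower. The 12 mesothelial genes summed to 794 CPM in P2Y4 KO and 2504 CPM in WT PAT, with 9 lower and none higher. The 14 endothelial genes summed to 317 CPM in P2Y4 KO and 207 CPM in WT PAT, with 7 higher, among them Tie1 and Vwf, and only Esam (0.566) below 1. The 12 pericyte and smooth muscle genes summed to 354 CPM in P2Y4 KO and 256 CPM in WT PAT, with 5 of 11 past the filter higher. Of the genes used by vessels, Nrp1, Nrp2, Plxnd1 and Robo4 had ratios above 1 like most of these endothelial genes, and Efnb2, Ephb4, Kdr and Unc5b below 1, though Unc5b was at 1.01 on the ribosomal scale. The 10 arterial and capillary genes summed to 451 CPM in P2Y4 KO and 217 CPM in WT PAT, with 5 higher and 4 below 1, and Cxcl12 alone had 281 CPM in P2Y4 KO and 92.3 CPM in WT PAT. The 12 fibroblast and preadipocyte genes summed to 6167 CPM in P2Y4 KO and 7208 CPM in WT PAT, with 2 lower. For the genes of Schwann cells and nerve, 10 of 12 listed, the sums were 118 CPM in P2Y4 KO and 170 CPM in WT PAT, of which Mbp had 82.3 CPM in P2Y4 KO and 135 CPM in WT PAT. Of the 8 past the filter, 1 was higher (Ngfr, 2.79) and 4 had a ratio above 1, with a median ratio of 1.01, and Sox10 had 4 reads in P2Y4 KO and 3 reads in WT PAT.

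Cardiomyocyte genes summed to 530 CPM in P2Y4 KO and 12.1 CPM in WT PAT, with all 13 past the filter higher, and skeletal muscle genes to 65.1 CPM in P2Y4 KO and 17.2 CPM in WT PAT. Brown and beige adipocyte genes summed to 478 CPM in P2Y4 KO and 24.5 CPM in WT PAT, with 10 of 10 higher, and general adipocyte genes to 7823 CPM in P2Y4 KO and 4036 CPM in WT PAT, with 9 of 14 higher. T cell genes reached 50.8 CPM in P2Y4 KO and 28.6 CPM in WT PAT, and macrophage genes 6437 CPM in P2Y4 KO and 5138 CPM in WT PAT. The 8 neutrophil genes summed to 1469 CPM in P2Y4 KO and 1766 CPM in WT PAT, all with ratios below 1 on the deposited scale, and 4 were lower, namely Camp (0.417), Ly6g (0.279), Retnlg (0.275) and Ngp (0.128). Camp had only 3 reads in P2Y4 KO and 9 reads in WT PAT, and its interval (0.060 to 1.39) includes 1. Lymphatic endothelial genes summed to 558 CPM in P2Y4 KO and 513 CPM in WT PAT, of which Pdpn alone had 404 and 417 CPM (0.968). Lyve1 had 148 CPM in P2Y4 KO and 91.7 CPM in WT PAT (1.61). Of the 5 lymphatic genes past the filter, 3 had ratios above 1 and 1 below 1. B cell genes summed to 232 CPM in P2Y4 KO and 218 CPM in WT PAT. The part of these cell types in the ratios of the guidance genes was not tested.

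**Figure D4:**
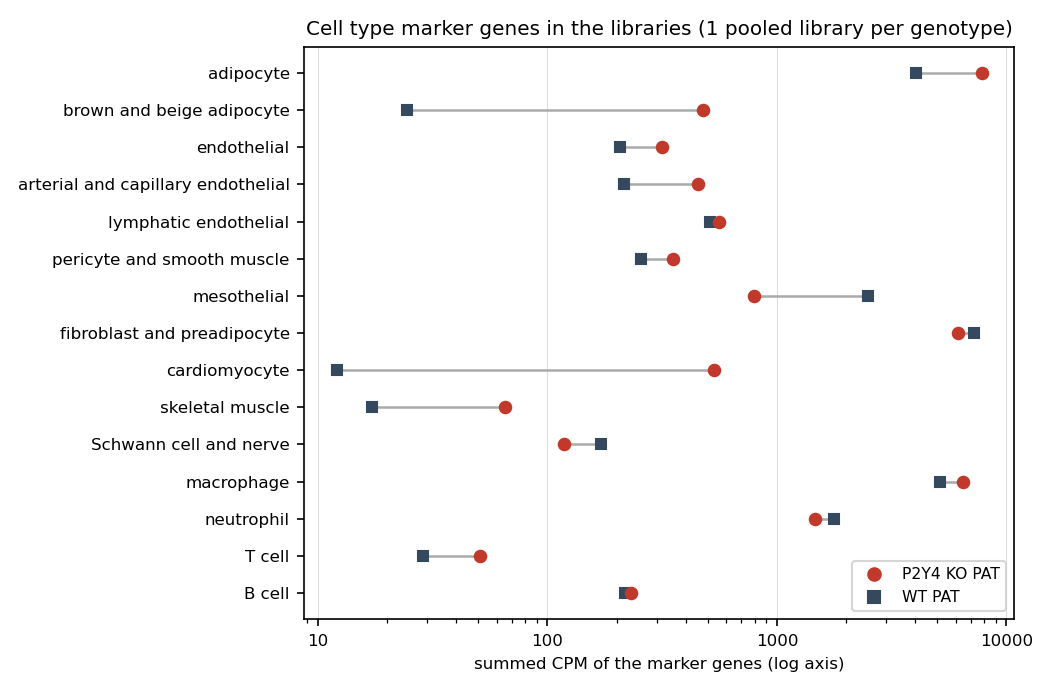
Summed CPM of the marker genes of each cell type on a log axis in P2Y4 KO PAT (circles) and WT PAT (squares), 1 pooled library per genotype. Endothelial markers lie higher in P2Y4 KO PAT (317 against 207 CPM in WT PAT) and mesothelial markers lower (794 against 2504 CPM in WT PAT).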

How the data were processed

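RNA pooled from the PAT of 3 mice per genotype was sequenced as 1 library per genotype (TruSeq Stranded mRNA). Reads were trimmed, aligned to the mouse genome and counted per gene by the authors. Trimmomatic, STAR, HTSeq and the builds GRCm38.p4 and mm10 are named for this, without versions or the strand setting. The deposited values are a signal per gene that looks like reads brought to 20000000 per library and rounded up. They also deposited their own P2Y4 KO/WT ratios and a list of regulated genes, which were not used.

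CPM was the deposited value divided by 20. Reads were recovered from the steps between values, where 1 read is worth 1.34 in P2Y4 KO and 1.29 in WT PAT. Whole reads, with no tolerance, account for 99.8% of the P2Y4 KO values and 99.9% of the WT values. The recovery and the intervals were tested on simulated data. Since the values are no raw counts and each genotype has 1 library, no count model was fitted and no test was made, and ratios have exact conditional binomial intervals. Genes past 0.5 CPM in at least 1 library were kept, which takes 8 reads, and the ratios of 2 and 0.5 follow the paper's methods. Exon lengths and coordinates are from GENCODE M21 (GRCm38). The analysis used Python 3.11.15, numpy 2.4.6, pandas 2.3.3 and scipy 1.17.1.

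Every listed member is named. Reads, CPM and ratio are given for members past the threshold and for the member with the highest mean CPM of each family, and other members were described by the same values where they bear on a family or pair. Promoters are from RefSeq. Some effector and marker results are not reported here. The members and lists were chosen with earlier results of these data known. Alternatives were other filters, scalings and thresholds, 0.5 CPM added to both libraries and, chosen after seeing the data, the recovered reads in place of the deposited values.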

Additional observations from a re-analysis of the deposited data

How the results depend on the processing

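Each genotype has 1 library, so leaving out a replicate was not possible and no difference has a replicate check. No paired analysis was possible because each genotype has a single library. Values of a few reads limit Epha3, Robo1 and the members under the filter, and genes without reads in WT PAT were not analysed here.

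The median log2 ratio of the guidance genes lay between -0.21 and 0.07 under the 11 alternatives, and was above 0 only with the ribosomal protein genes set to 1. That scaling, which adds 0.19 to every log2 ratio, gave 6 higher and 1 lower guidance genes, the 6 being receptors, with 1 lower ligand and 0 lower receptors. It turned Sema4a, Sema4b, Plxnb2, Slit2, Ntn4 and Unc5b to ratios above 1, gave 2 higher and 0 lower co-receptors and a median of 0.10 for the effectors. The number of higher members was 1, Robo1, with CPM above 0.5 in both libraries, with a mean CPM above 0.5 and with CPM above 1, and 1, Epha3, with median-of-ratios size factors, in each case a receptor. It was 0, receptors included, when 0.5 CPM was added, and with the whole interval past the threshold it was 0 with 1 lower member, Sema3d. At a ratio of 1.5 there were 11 higher and 15 lower members. Without a filter there were 1 higher ligand (Slit1), 2 lower receptors (Epha2 and Robo3) and 2 lower effectors. Leaving out the 100 most abundant genes gave 2 higher co-receptors, and for the effectors 1 was higher with CPM above 0.5 in both libraries, with CPM above 1 and with 0.5 CPM added.

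With the ribosomal protein genes set to 1, the log2 ratios of the marker sums were 1.15 for adipocyte, 4.48 for brown and beige adipocyte, 0.81 for endothelial, 1.25 for arterial and capillary endothelial, 0.31 for lymphatic endothelial, 0.66 for pericyte and smooth muscle, -1.47 for mesothelial, -0.035 for fibroblast, -0.34 for Schwann cell and nerve, 0.52 for macrophage, -0.075 for neutrophil, 1.02 for T cell and 0.28 for B cell genes.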

Other observations

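Other families of guidance and adhesion proteins, picked after the results of the guidance genes were seen, differed mostly within a factor of 2. Of 6 teneurin (Tenm) and latrophilin-type (Adgrl) genes past the filter, Tenm4 was higher (16.7%, against 8.75% of all genes). It had 222 reads (14.95 CPM) in P2Y4 KO and 60 reads (3.9 CPM) in WT PAT, a ratio of 3.83 (2.89 to 5.22). Its relative Tenm3 had 149 reads in P2Y4 KO and 145 reads in WT PAT (1.07), and the Adgrl genes had ratios from 0.710 for Adgrl1 to 1.54 for Adgrl2. None of the 4 nectins passed the threshold (against 13.1% of all genes), with Nectin3 at 0.692 and Nectin2 at 0.778.

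The matrix protein Tnxb had 1079 reads (72.5 CPM) in P2Y4 KO and 2173 reads (140 CPM) in WT PAT, a ratio of 0.517 (0.480 to 0.557), while Tnc, another tenascin, had 407 reads in P2Y4 KO and 361 reads in WT PAT (1.17). In the reelin pathway, Vldlr and Lrp8, the receptors of reelin, had ratios of 1.13 and 0.869, and Reln itself had 5 reads in each library.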
